A study of Mus musculus with 20 samples.

Results

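The TGF-beta and BMP signalling genes described here are 39 genes chosen by name: 11 ligands, 10 receptors and co-receptors, 4 extracellular regulators, 8 SMADs, 3 nuclear repressors and 3 Id target genes. Each had 1 row among the 25308 genes of the table. The heart apex of 20 mice was sequenced in bulk. The 9 AL mice were λS-DH animals with amyloid in the heart: they carry a human λ light chain cDNA from a patient with AL amyloidosis, inserted at the Ig kappa locus and expressed in B cells and plasma cells, on the DH-LMP2A background, which has no Ig heavy chains. Amyloid had been induced by 1 intravenous injection of the recombinant variable domain of this light chain, as sonicated fibrils or in soluble form. The 4 LS mice had the same genotype, were not induced and had no cardiac amyloid, and the 7 Ctrl mice were age-matched DH-LMP2A mice without the human gene. Ages of single mice, the form injected into each and the time since injection were not used here. So the injection and the amyloid cannot be told apart in AL against either control, and the genotype differs as well in AL against Ctrl. The LS mice are not stated to be age-matched, so age may differ as well in AL against LS and in LS against Ctrl.

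TGF-beta, activin and BMP ligands are secreted dimers that bring together type I and type II receptor kinases. In the classical scheme TGF-beta and activin receptors phosphorylate Smad2 and Smad3, BMP receptors phosphorylate Smad1, Smad5 and Smad9, and both groups enter the nucleus with the shared partner Smad4. Smad6, Smad7, Ski and Skil restrain the signal, follistatins and gremlin bind ligands outside the cell, and the Id genes are well-known BMP targets. In the heart TGF-beta is best known for fibroblast activation and matrix production, and BMP and endoglin signalling for its role in endothelium.

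The depth of the libraries followed the sequencing run. The first run held 15 mice (7 AL, 4 LS and 4 Ctrl) with 43993277 to 62668146 counts each, and the second run held AL8, AL9, Ctrl5, Ctrl6 and Ctrl7 with 7867642 to 11794615. All LS mice were in the first run. The fits carried a term for the run, and p-values measure the spread between mice. The human insert is no gene of the mouse annotation. Igkc, the mouse gene of the locus that carries the insert, had 8, 274, 22 and 30 counts in Ctrl1 to Ctrl4 and 0 to 6 in the first-run AL and LS mice, while in the second run the groups overlapped (0, 6 and 5 counts in Ctrl5 to Ctrl7, 0 in AL8 and AL9). Levels are given as CPM, counts scaled to library size after TMM normalisation, which fits each library to the bulk of its genes. Fewer cells of a type and less RNA per cell cannot be told apart in such tissue samples. Ventricular cardiomyocyte markers, 10 genes, summed to 58200 to 96900 CPM over the 20 mice.

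Of the 39 genes, 37 passed the filter on low counts (about 10 counts in enough mice). The other two were close to undetected. Bmp10, a ligand made in the atria, had 0 to 11 counts per mouse, and Grem1, the BMP antagonist gremlin, had 0 counts in all Ctrl mice and at most 2 elsewhere. A count of 0 allows up to 0.0479 to 0.381 CPM, depending on the library, by counting error alone.

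Per kilobase of exon, receptors and downstream genes stood above most ligands. In Ctrl mice Eng was at the top with a mean of 21.4 CPM per kb, followed by Id1 with 20.2, Fstl1 with 18.5, Bmpr1a with 15.1 and Id3 with 14.4. Among ligands Bmp6 had the highest mean, 4.57 CPM per kb, followed by Tgfb3 with 3.62 and Bmp4 with 2.49. Tgfb1 (1.61) and Tgfb2 (1.34) lay close together, and Inhba, Inhbb, Mstn, Bmp7 and Bmp2 lay between 0.218 and 0.498. The SMADs ranged from 10.2 for Smad4 down to 0.311 for Smad9, a BMP-responsive SMAD.

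**Figure D1:**
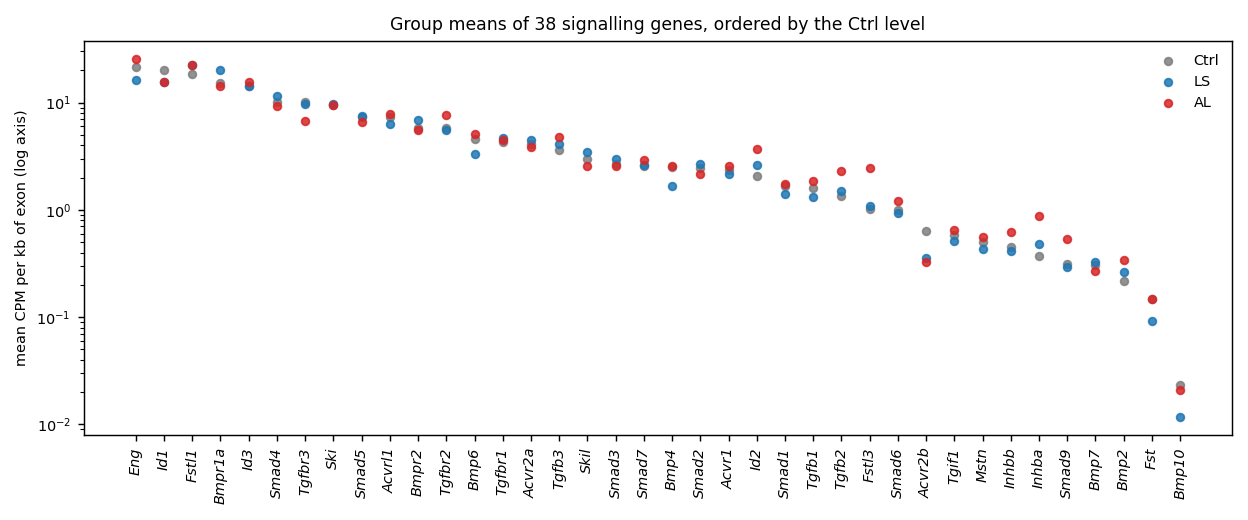
Mean CPM per kilobase of exon (log axis) of the 38 genes with a Ctrl mean above 0, ordered from left to right by the Ctrl mean, with points for Ctrl (grey), LS (blue) and AL (red). Eng is highest (21.4 in Ctrl) and Bmp10 lowest (0.0231), and the 3 points of most genes lie close to each other on this scale.

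The comparison of AL with Ctrl mice asks how the pathway's RNA differs in amyloid hearts, and 13 of the 37 tested genes differed at a false discovery rate (FDR, the Benjamini-Hochberg adjusted p over all 14477 genes tested) under 0.05. That was 35.1% of the tested genes, against 26.2% of all genes tested. Fstl3, Smad9, Tgfb2, Id2, Tgfbr2 and Eng were higher in AL (6 genes, 16.2%, against 10.7% of all genes), and Tgfbr3, Acvr2b, Skil, Bmpr2, Smad2, Smad4 and Smad5 were lower (7 genes, 18.9%, against 15.4%). With a log2 fold change (log2FC) of at least 0.58 in size as well, 6 genes remained, Fstl3, Smad9, Tgfb2 and Id2 higher and Tgfbr3 and Acvr2b lower, or 16.2% against 7.81% of all genes. This count was 3 without Ctrl2 and 3 without Ctrl4, against 7.76% and 6.38% of all genes. The median log2FC of the 37 genes was 0.0751, against 0.0125 over all genes.

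Against LS mice, which share the genotype, 13 of the 37 genes also had an FDR under 0.05 (35.1%, against 23.4% of all genes tested). Here Fstl3, Id2, Bmp4, Bmp6, Eng, Tgfbr2 and Acvrl1 were higher in AL (7 genes, 18.9%, against 9.78%), and Tgfbr3, Bmpr1a, Skil, Smad2, Smad4 and Smad5 were lower (6 genes, 16.2%, against 13.6%). Fstl3, Id2, Bmp4, Bmp6 and Eng also had a log2FC of at least 0.58 (5 genes, 13.5%, against 8.9%). The count at an FDR under 0.05 fell to 8, 7, 7 and 6 without LS1, LS2, LS3 and LS4, and to 8 without AL4 and 8 without AL7. The share of all genes fell as well, to 16.7%, 15.4%, 16% and 16% without LS1 to LS4. It was 20.3% without AL4 and 21.5% without AL7. The count with the limit on size was 2 without AL1 or AL7, 3 without AL4, AL5, AL6, LS1 or LS4, and 1 without LS2 or LS3. The share of all genes with that limit was 7.13% without AL1, 6.53% without LS2 and 6.54% without LS3. The median log2FC of the 37 genes was 0.233, against 0.0111 over all genes. The AL mice are the same in both comparisons, so the lists are not independent of each other.

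The comparison of LS with Ctrl mice asks whether the circulating light chain without amyloid goes with a difference. In edgeR 0 of the 37 genes had an FDR under 0.05, against 3 of all genes tested (0.0207%). In DESeq2 it was 0 as well, against 0.145% of all genes. At an unadjusted p under 0.05 in edgeR there were 2 genes of 37, against 5.94% of all genes, both lower in LS. They were Bmp4 (log2FC -0.52 ± 0.242 SE) and Eng (-0.30 ± 0.145), with FDRs of 0.818 and 0.837. With 4 LS mice, all in 1 run, differences of this size were not resolved: the 95% interval of the LS to Ctrl ratio of Bmp4 ran from 0.501 to 0.966.

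**Figure D2:**
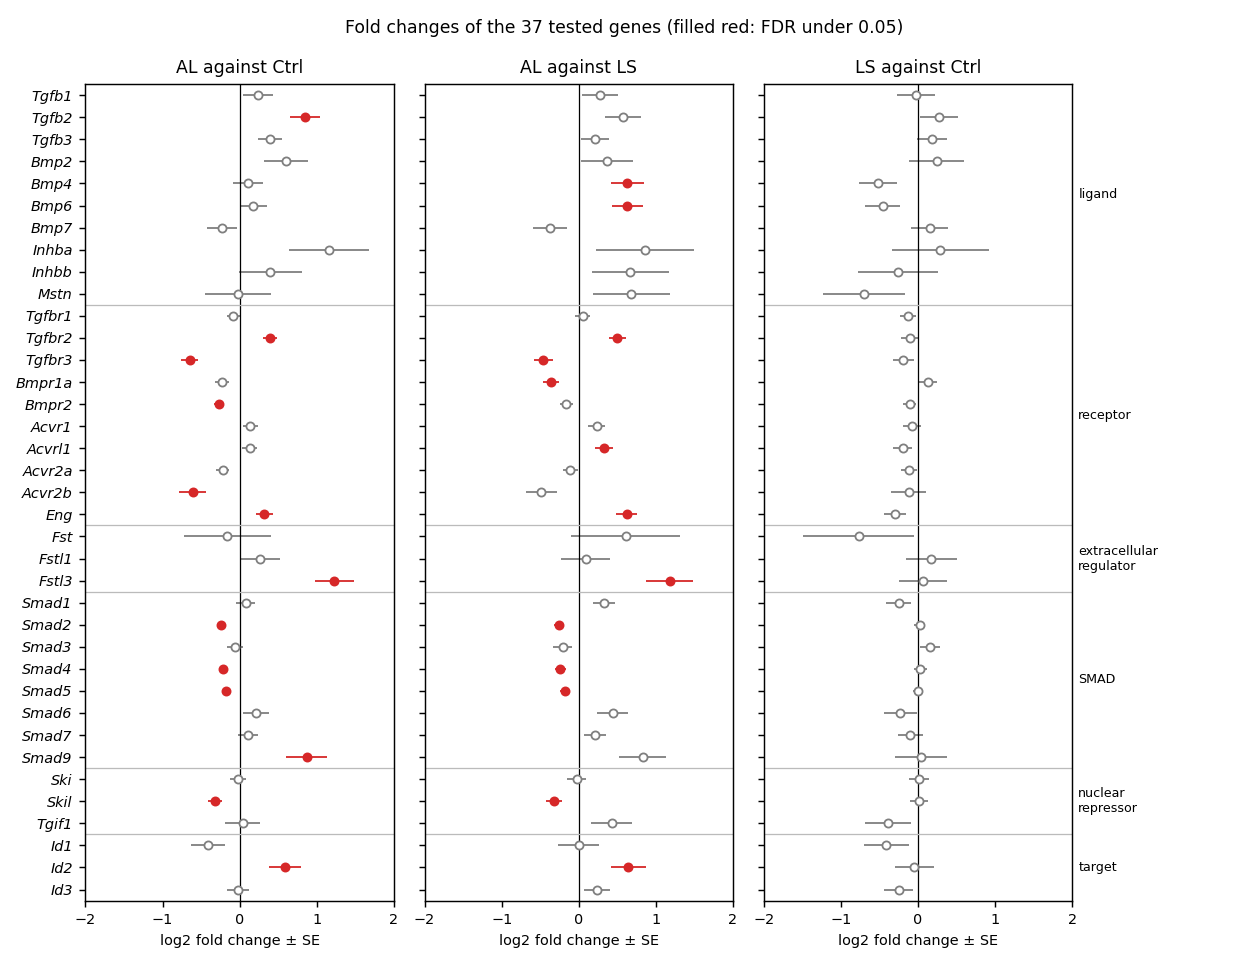
log2 fold change (horizontal axis) ± SE of the 37 tested genes, grouped by role, in 3 panels, AL over Ctrl, AL over LS, then LS over Ctrl, with filled red points at an FDR under 0.05. Fstl3 is the rightmost filled point in both AL panels (1.23 and 1.18), Tgfbr3 the leftmost (-0.65 and -0.46), and no point is filled in the LS panel.

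Tgfb2 was the TGF-beta ligand that differed between AL and Ctrl. It measured 7.47 to 21.7 CPM in AL mice (median 13.1), 9.45, 9.15, 8.15 and 7.80 in LS1 to LS4, and 5.65 to 11.6 in Ctrl mice (median 7.46). Within the first run the 7 AL mice (8.27 or more) lay above the 4 Ctrl mice (8.19 or less), whereas AL8, at 7.47, lay among the 3 second-run Ctrl mice. The fitted ratio of AL to Ctrl was 1.80 (95% interval 1.37 to 2.35, FDR 0.00484). Against LS the ratio was 1.49 (1.08 to 2.04), with an FDR of 0.0802.

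The other TGF-beta ligands did not pass the test. Tgfb1 had a log2FC of 0.24 ± 0.19 (SE) against Ctrl (FDR 0.374). AL9 stood at 23.6 CPM, and the other 8 AL mice at 6.20 to 9.26, within or just under the Ctrl range of 6.50 to 9.42. Without AL9 the log2FC of Tgfb1 was -0.03. Tgfb3 had a log2FC of 0.39 ± 0.157 (FDR 0.0753).

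The BMP ligands Bmp4 and Bmp6, the latter made largely by endothelium and known for its role in iron regulation, were higher in AL than in LS. Bmp4 measured 4.11, 3.22, 3.24 and 4.45 CPM in LS1 to LS4 and 3.67 to 7.46 in AL mice (median 5.91). The 7 AL mice of the first run, at 4.47 or more, all lay above the LS mice. The log2FC of AL against LS was 0.63 ± 0.216 (SE, FDR 0.04), a ratio of 1.55. Ctrl mice, at 3.32 to 8.37 CPM (median 5.38), overlapped both groups, and the log2FC of AL against Ctrl was 0.11 ± 0.19 (FDR 0.708), the fit over runs of opposite sign (0.44 and -0.68). Bmp6 measured 15.2, 10.7, 11.1 and 15.2 CPM in LS1 to LS4, 13.4 to 26.2 in AL mice (median 22.2) and 13.5 to 26 in Ctrl mice (median 15.7). Its ratio of AL to LS was 1.55 (1.18 to 2.04, FDR 0.0297), with AL3, AL8 and AL9 at 13.4, 15.1 and 14 inside the LS range. Both results were sensitive to single mice. The FDR of Bmp4 rose above 0.05, up to 0.125, without AL1, AL2, AL4, AL5, AL6, AL7 or any of the LS mice, and that of Bmp6, up to 0.108, without AL1, AL7, LS2 or LS3. With the mean of 20 liver markers as a covariate the log2FC against LS was 0.35 (FDR 0.325) for Bmp4 and 0.46 (FDR 0.185) for Bmp6.

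Inhba, which encodes the activin A subunit, had a high fold change but a wide spread among AL mice. It measured 0.711 CPM in AL8 and 17.4 in AL9, with the other AL mice at 2.09 to 8.74, and 0.689 to 5.43 in Ctrl mice. Its log2FC against Ctrl was 1.16 ± 0.522 (FDR 0.108), and 0.34 without AL9. Bmp2, Bmp7, Inhbb and Mstn, the gene for myostatin, had FDRs from 0.13 to 0.98 against Ctrl and of 0.235 or more against LS.

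The receptors moved in both directions. Tgfbr2, the type II receptor that binds TGF-beta, was higher in AL than in either control. It measured 44.4 to 82.6 CPM in AL mice (median 60.8), 43.8, 45, 44.8 and 46.8 in LS1 to LS4, and 41.6 to 54.0 in Ctrl mice (median 49.5). Only AL8, at 44.4, lay within the control ranges, and the 7 AL mice of the first run, at 58.0 or more, lay above every LS and Ctrl mouse. The ratio was 1.32 to Ctrl (95% interval 1.16 to 1.49, FDR 0.00444) and 1.41 to LS (1.21 to 1.64, FDR 0.00404). Its type I partner Tgfbr1 had a log2FC of -0.08 ± 0.0864 against Ctrl (FDR 0.544). Tgfbr1 showed mainly the run: it stood at 28.7 to 38.1 CPM in the first-run mice of the 3 groups and at 14.7 to 26.5 in the second-run mice.

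Tgfbr3, or betaglycan, the co-receptor that presents TGF-beta2 to Tgfbr2, was lower in AL. AL mice had 37.5 to 55.6 CPM (median 42.9), LS1 to LS4 had 66.5, 53.7, 65.1 and 69.1, and Ctrl mice had 49.5 to 102 (median 61.7). In the first run no AL mouse reached the lowest Ctrl mouse (58.5), and in the second run AL8 and AL9 (38.8 and 39.8) lay under the 3 Ctrl mice (49.5 or more). AL2, at 55.6, was the AL mouse that overlapped LS2. Tgfbr3 had the lowest FDR of the set against Ctrl, 0.000475, with a ratio of 0.639 (95% interval 0.552 to 0.740), and the ratio to LS was 0.727 (0.612 to 0.863, FDR 0.0139). Both results held in all fits that left out 1 mouse, and the result against LS was lost with ComBat-seq (log2FC -0.52, FDR 0.118).

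Endoglin (Eng), the co-receptor of endothelial TGF-beta and BMP signalling, was higher in AL, more clearly against LS. It measured 79.5 to 143 CPM in AL mice (median 106), 72.0, 57.1, 58.3 and 74.1 in LS1 to LS4, and 72.5 to 103 in Ctrl mice (median 83.3). All 9 AL mice lay above the LS mice, whereas AL and Ctrl overlapped. The ratio was 1.54 to LS (95% interval 1.29 to 1.85, FDR 0.00321) and 1.25 to Ctrl (1.07 to 1.45, FDR 0.0417). The second of these was lost in 11 of the 20 fits that left out 1 mouse, those without AL1, AL2, AL6, AL7, AL9, LS1, Ctrl1, Ctrl2, Ctrl3, Ctrl4 or Ctrl6, with FDRs of up to 0.103. Acvrl1 (ALK1), the endothelial type I receptor that works with endoglin, had 27.1 to 43.4 CPM in AL mice (median 33.5) and 30.8, 23.4, 23.2 and 29.4 in LS1 to LS4. Its ratio to LS was 1.26 (1.07 to 1.47, FDR 0.0476), a value lost in 14 of 20 such fits, all but those without AL2, AL8, AL9, LS1, Ctrl3 or Ctrl5, with FDRs of up to 0.168. Against Ctrl the FDR of Acvrl1 was 0.355.

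Of the BMP and activin receptors, Bmpr2 and Acvr2b were lower in AL than in Ctrl, and Bmpr1a was lower than in LS. Bmpr2, the main BMP type II receptor, had 105 to 129 CPM in the AL mice of the first run and 124 to 136 in its Ctrl mice, and 50.6 and 55 in AL8 and AL9 against 59.6 to 80.1 in Ctrl5 to Ctrl7. LS1 to LS4 had 129, 124, 116 and 127. The ratio of AL to Ctrl was 0.83 (95% interval 0.757 to 0.910, FDR 0.00755), and the ratio to LS 0.895, with an FDR of 0.145. Acvr2b, a type II receptor for activin and myostatin, was a rare transcript whose level depended on the run. It measured 0.724 to 1.36 CPM in the AL mice of the first run against 0.897 to 1.81 in its Ctrl mice, 1.81 and 2.61 in AL9 and AL8 against 3.69 to 4.13 in the second-run Ctrl mice, and 1.61, 1.39, 1.34 and 1.19 in LS1 to LS4. The fitted ratio to Ctrl was 0.655 (0.516 to 0.830, FDR 0.0154), and within the first run alone the FDR was 0.0914. Bmpr1a, a BMP type I receptor, had 122, 127, 129 and 137 CPM in LS1 to LS4 and 78.1 to 123 in the first-run AL mice, with a ratio of AL to LS of 0.78 (0.675 to 0.901, FDR 0.0205, and 0.0646 without LS4). Acvr1 and Acvr2a had FDRs of 0.271 and 0.0547 against Ctrl.

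**Figure D3:**
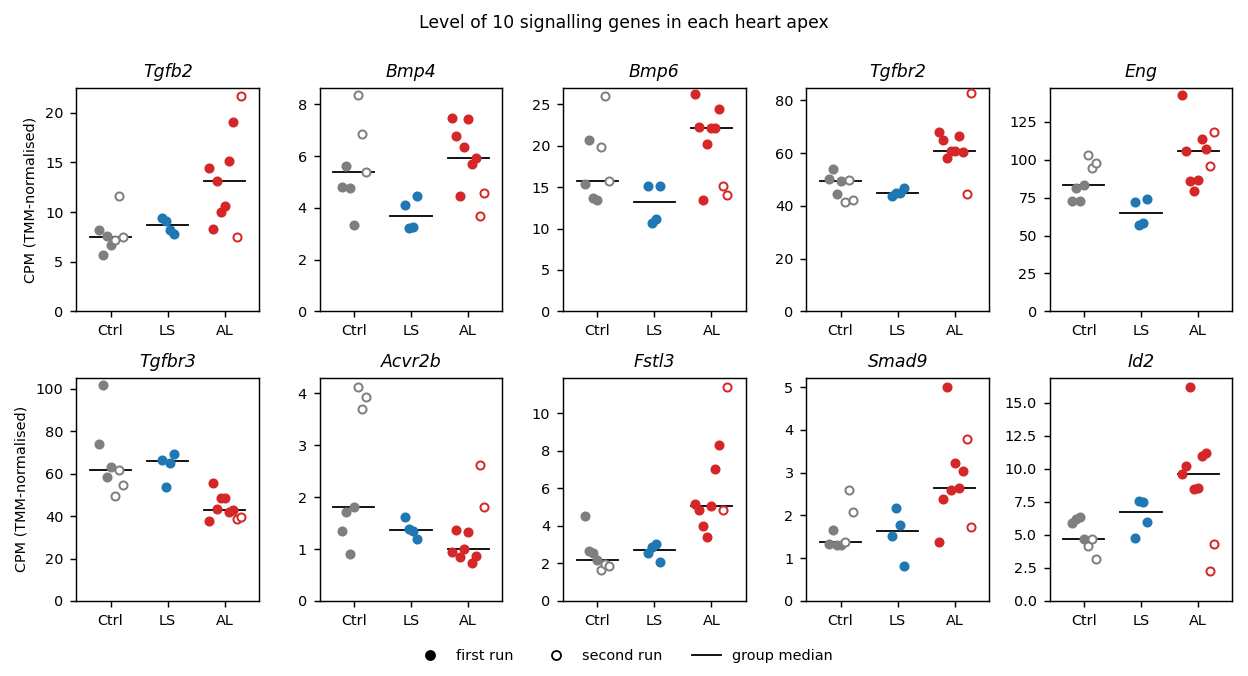
CPM (linear axis from 0) of 10 genes in each mouse of the Ctrl, LS and AL groups, with filled points for the first run, open points for the second and a line at the group median. Tgfbr2 and Fstl3 are higher and Tgfbr3 lower in most AL mice, Id2 is high in the 7 AL mice of the first run only, and Acvr2b separates by run (3.69 to 4.13 CPM in the second-run Ctrl mice).

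Fstl3, a secreted follistatin-like protein that binds activin and myostatin, had the largest rise among the genes that passed the test. AL mice had 3.41 to 11.4 CPM (median 5.06), LS1 to LS4 had 2.57, 2.88, 3.04 and 2.06, and Ctrl mice had 1.67 to 4.5 (median 2.18). Every AL mouse lay above every LS mouse, and AL3 and AL4 (3.98 and 3.41) lay under Ctrl1, the highest Ctrl mouse. The ratio was 2.35 to Ctrl (95% interval 1.67 to 3.30, FDR 0.00186) and 2.26 to LS (1.49 to 3.43, FDR 0.0105). AL9 was highest, and without it the log2FC against Ctrl was 0.98 (FDR 0.00308). Fst itself, follistatin, was rare at 0.197 to 2.62 CPM over all mice and had an FDR of 0.868 against Ctrl. Fstl1, an abundant secreted glycoprotein, had 36.4 CPM in AL8 and 213 in AL9, and a log2FC of 0.26 ± 0.26 (FDR 0.483), or -0.21 without AL9.

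To show the DNA before the start sites of genes that moved the same way against both controls, the promoters of Fstl3, Tgfbr2 and Eng (higher in AL) and of Smad5 (lower in AL) are printed below. Id2 (higher) and Tgfbr3, Skil, Smad2 and Smad4 (lower) moved the same way against both as well. The Id2 window, 89 bases, was too short to print, and the other 4 had no window. So no contrast between higher and lower genes can be read from the printed windows. RefSeq windows (GRCm38.p6) matched 28 of the 39 genes, and only bases before the start site and outside GENCODE M21 exons are given. Capitals mark CAGAC, the letters of a SMAD binding element, on either strand (GTCTG on the printed strand). The motif was present in the 250 bases before the start of 13 of the 28 genes, and in 42.2% of 32841 promoter windows of that length. A match in these letters is a description and shows no binding.
Fstl3, chr10:79777024-79777271, plus strand: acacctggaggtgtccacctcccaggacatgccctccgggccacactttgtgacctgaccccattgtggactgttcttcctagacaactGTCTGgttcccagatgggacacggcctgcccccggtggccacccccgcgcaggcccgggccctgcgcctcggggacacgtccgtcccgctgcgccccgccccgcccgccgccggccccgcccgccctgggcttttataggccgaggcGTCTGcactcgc
Tgfbr2, chr9:116175364-116175613, minus strand: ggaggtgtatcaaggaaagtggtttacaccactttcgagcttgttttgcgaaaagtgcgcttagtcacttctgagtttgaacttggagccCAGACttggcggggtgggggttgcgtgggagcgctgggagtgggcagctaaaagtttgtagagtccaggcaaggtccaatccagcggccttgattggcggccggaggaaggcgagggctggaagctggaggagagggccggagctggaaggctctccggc
Eng, chr2:32646345-32646594, plus strand: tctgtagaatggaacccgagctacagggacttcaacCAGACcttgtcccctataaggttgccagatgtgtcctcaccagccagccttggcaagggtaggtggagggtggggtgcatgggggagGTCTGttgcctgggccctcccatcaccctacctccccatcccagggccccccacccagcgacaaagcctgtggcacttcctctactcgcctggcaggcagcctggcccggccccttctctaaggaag
Smad5, chr13:56702760-56703009, plus strand: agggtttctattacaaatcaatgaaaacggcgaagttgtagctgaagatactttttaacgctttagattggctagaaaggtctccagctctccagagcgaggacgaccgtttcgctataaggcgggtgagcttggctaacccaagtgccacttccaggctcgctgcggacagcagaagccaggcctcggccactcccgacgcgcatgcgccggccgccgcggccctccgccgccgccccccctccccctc
The Fstl3 window held 2 matches, the Eng window 1 on each strand, the Tgfbr2 window 1 and the Smad5 window 0. The motif GGCGCC, known from BMP-responsive elements, was searched on both strands too, was in none of these 4 windows, and was in 8 of the 28 genes. The Id2 window, not printed, held 1 GGCGCC. By window it was in 8 of 35 (22.9%, some genes having several), against 9.59% of all windows, and CAGAC was in 15 of 35 (42.9%).

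Among the SMADs, 3 of the classical signal transducers were lower in AL than in both controls, by small amounts. Smad2, which carries TGF-beta and activin signals, measured 17 to 20.8 CPM in AL mice (median 19.0), 22.3, 22.7, 22.1 and 26.2 in LS1 to LS4, and 17.7 to 23.8 in Ctrl mice (median 23.0). All AL mice lay below all LS mice, and within the first run below all Ctrl mice (23.0 or more). The ratio was 0.847 to Ctrl (95% interval 0.789 to 0.909, FDR 0.00291) and 0.835 to LS (0.769 to 0.906, FDR 0.00521). Smad4, the shared partner, had 24.5 to 39.5 CPM in AL mice (median 36.0), 44.3, 39.7, 38.2 and 46.5 in LS1 to LS4, and 34.3 to 40.4 in Ctrl mice (median 38.7). Its ratios were 0.866 to Ctrl (FDR 0.0198) and 0.848 to LS (FDR 0.023), and the latter was lost without LS1 or LS4, with FDRs of up to 0.0965. Smad5, a BMP SMAD, had 44.1 to 55.6 CPM in AL mice (median 48), 53.2, 56.2, 56.7 and 55.8 in LS1 to LS4, and 50.6 to 57.9 in Ctrl mice (median 55.6). The ratios of Smad5 were 0.882 to Ctrl (FDR 0.0154) and 0.884 to LS (FDR 0.0403), the latter lost without AL1, AL4, AL6, AL7, AL9 or any LS mouse, with FDRs of up to 0.103. Groups overlapped for Smad4 and Smad5, and in the first run alone their FDRs against Ctrl were 0.174 and 0.0724.

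Smad9, the rarest of the BMP SMADs, went the other way. It measured 1.39 to 5.01 CPM in AL mice (median 2.65), 1.51, 2.17, 1.77 and 0.809 in LS1 to LS4, and 1.3 to 2.59 in Ctrl mice (median 1.38). AL1 was the lowest and AL3 the highest of the AL mice, and the groups overlapped in both runs. The ratio to Ctrl was 1.83 (95% interval 1.27 to 2.62, FDR 0.0223), lost without Ctrl3 or Ctrl4 with FDRs of up to 0.0551, and with the liver covariate (log2FC 0.58, FDR 0.242), and the ratio to LS was 1.78 (1.17 to 2.70, FDR 0.0557). Smad1 and Smad3 had log2FC of 0.08 and -0.06 against Ctrl, with FDRs of 0.698 and 0.693. The inhibitory SMADs, Smad6 and Smad7, had log2FC of 0.21 ± 0.165 and 0.11 ± 0.125 against Ctrl (FDR 0.356 and 0.531) and of 0.44 ± 0.199 and 0.21 ± 0.142 against LS (FDR 0.113 and 0.288).

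Of the nuclear repressors, Skil (SnoN), which binds SMADs and is itself induced by TGF-beta, was lower in AL. AL mice had 14.7 to 35.6 CPM (median 26), LS1 to LS4 had 35.0, 34.5, 32.4 and 34.0, and Ctrl mice had 20.4 to 35.8 (median 31.4). AL1, at 35.6, was the one AL mouse above the LS mice. The ratio was 0.803 to Ctrl (95% interval 0.707 to 0.912, FDR 0.0185) and 0.799 to LS (0.690 to 0.925, FDR 0.0367), the latter lost without AL3, AL4, AL5 or any LS mouse, with FDRs of up to 0.0765. Ski, its close relative, had a log2FC of -0.02 ± 0.101 against Ctrl, and Tgif1 one of 0.04 ± 0.23.

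The 3 Id genes, which encode inhibitors of basic helix-loop-helix factors, did not move together. Id2 measured 2.25 to 16.2 CPM in AL mice (median 9.63), 4.77, 7.55, 7.50 and 5.95 in LS1 to LS4, and 3.15 to 6.33 in Ctrl mice (median 4.72). In the first run the 7 AL mice (8.47 or more) lay above all LS and Ctrl mice, while AL8 and AL9, at 2.25 and 4.30, lay within or below the second-run Ctrl mice (3.15 to 4.68). The ratio to Ctrl was 1.51 (95% interval 1.14 to 1.99, FDR 0.0391) and to LS 1.55 (1.14 to 2.11, FDR 0.0479). The first was lost without AL1, AL2, AL3, AL6, AL7, Ctrl1, Ctrl2, Ctrl3 or Ctrl4, with FDRs of up to 0.118, and the second in 15 of 20 such fits, all but those without AL8, AL9, Ctrl4, Ctrl5 or Ctrl6, with FDRs of up to 0.162. With the mean of the liver markers as a covariate the log2FC of Id2 was 0.21 (FDR 0.584) against Ctrl and 0.33 (FDR 0.355) against LS. Id1 had a log2FC of -0.41 ± 0.225 against Ctrl (FDR 0.19) and of 0.00 ± 0.267 against LS (FDR 0.992). Id3 had values of -0.02 ± 0.145 (FDR 0.949) and 0.23 ± 0.168 (FDR 0.33).

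How the sequencing run was handled, and the liver covariate, changed which of these genes passed. With ComBat-seq adjustment in place of the run term, Fstl3, Smad9, Tgfb2 and Tgfbr3 passed against Ctrl, and Fstl3 alone against LS. Without any run term Smad2, Smad4, Smad5, Bmpr2, Eng and Skil were lost against Ctrl, and Smad4, Smad5, Bmpr1a, Acvrl1, Id2 and Skil against LS. With the liver covariate Eng, Id2, Skil, Smad5 and Smad9 were lost against Ctrl, and Id2, Bmp4, Bmp6, Bmpr1a, Acvrl1, Skil and Smad5 against LS. Lost means an FDR of 0.05 or more, not always a smaller log2FC. Against Ctrl, Eng (0.30), Skil (-0.29) and Smad5 (-0.20) stayed near 0.32, -0.32 and -0.18. Id2 and Smad9 fell to 0.21 and 0.58. Against LS, Bmpr1a (-0.33), Skil (-0.30) and Smad5 (-0.20) stayed near -0.36, -0.32 and -0.18. The share of all genes at an FDR under 0.05 fell as well. It was 17.3% against Ctrl and 18.1% against LS with the liver covariate, 5.5% and 4.48% with ComBat-seq, and 15.1% and 16.4% without a run term.

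Within the first run, 5 of the 37 genes had AL and Ctrl mice that did not overlap, Tgfb2, Tgfbr2 and Id2 with AL above and Tgfbr3 and Smad2 with AL below, while 14.3% of all genes did not overlap. Between AL and LS, 6 genes did not overlap, Fstl3, Id2, Bmp4, Eng and Tgfbr2 above and Smad2 below, against 20.5% of all genes. Neither share of the 37 genes (5 and 6) was above that of all genes.

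The AL effect was also compared between the runs. Over the 5 second-run mice Fstl3 had a log2FC of 2.20, Tgfb2 of 0.81, Tgfbr2 of 0.58, Tgfbr3 of -0.44 and Acvr2b of -0.78, and Id2 of -0.21 where the first run gave 0.89. A term for the difference between runs passed an FDR of 0.05 for 0 of the 37 genes in edgeR, against 0.701% of all genes (97 of 13835). In DESeq2 the term passed for 1 gene (Bmp4), against 3.47% of all genes. At an unadjusted p under 0.05 in edgeR the term held 13 of the 37 genes, against 15.3% of all genes. The lowest FDR in edgeR was 0.0947, that of Bmp4. Bmp4 had a log2FC of 0.44 in the first run and -0.68 in the second, and Bmp6 of 0.45 and -0.44. AL8 and AL9 differed from each other as well. Of the 37 genes, AL8 held the lowest AL value for 21, and AL9 the highest for 14. Without AL8 the term passed for 10 genes (Acvr2a, Fst, Fstl1, Fstl3, Inhba, Ski, Smad6, Tgfb1, Tgfb3 and Tgfbr2), with AL9 then the sole AL mouse of the second run and assumed to vary like the others, against 14.0% of all genes.

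**Figure D4:**
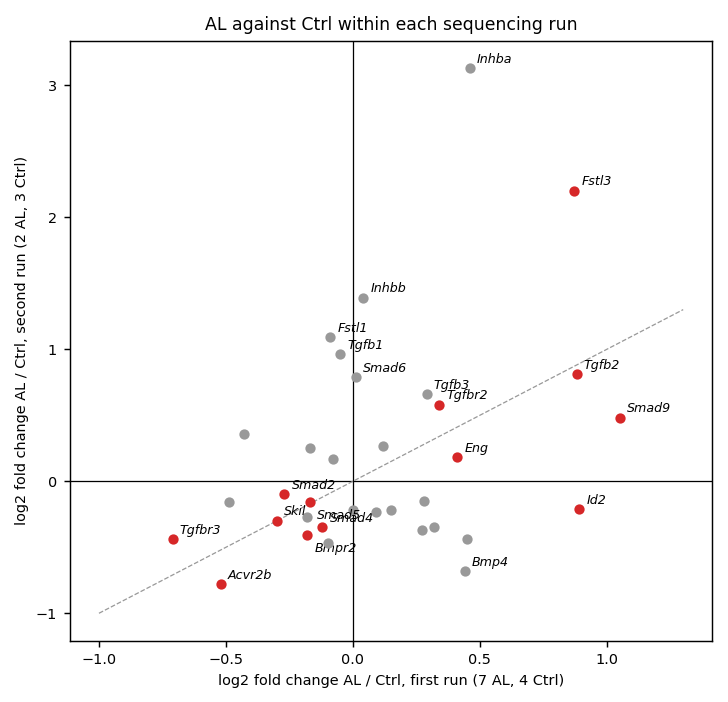
log2 fold change of AL over Ctrl in the first run (horizontal axis, 7 AL and 4 Ctrl mice) and in the second run (vertical axis, 2 AL and 3 Ctrl mice) for the genes tested in both, with the line of equal values dashed and genes at an FDR under 0.05 over both runs in red. Fstl3 (0.87 and 2.20) and Tgfb2 (0.88 and 0.81) are high in both, Id2 (0.89 and -0.21) and Bmp4 (0.44 and -0.68) are among those with opposite signs, and Inhba reaches 3.13 in the second run.

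The rest of the pathway was described with 7 lists of other genes, of which 95 genes were tested. Against Ctrl, 32 of them had an FDR under 0.05 (18 higher), or 33.7% against 26.2% of all genes. Against LS there were 19 (8 higher), or 20% against 23.4%, and between LS and Ctrl 0 in edgeR. Bambi, Pmepa1, Ltbp2 and Thbs1 stand in 2 lists each. For the counts of single lists below, 10.7% of all genes were higher and 15.4% lower against Ctrl. Against LS these shares were 9.78% and 13.6%. Of 24 tested intracellular regulators, 11 were lower and 3 higher against Ctrl, and 7 were lower and 1 higher against LS, with median log2FC of -0.19 and -0.17. Those lowest by p against Ctrl that also passed against LS were Usp15, a deubiquitinase of the pathway (log2FC -0.43 against Ctrl and -0.45 against LS), the ubiquitin ligases Smurf1 (-0.27 and -0.19), Wwp1 (-0.40 and -0.37) and Trim33 (-0.31 and -0.22), and Zfyve9, or SARA, which anchors Smad2 at receptors (-0.28 and -0.36).

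Of 23 tested TGF-beta target genes, 7 were higher and 0 lower against Ctrl, and 2 were higher and 0 lower against LS. Comp, a matrix protein (log2FC 1.54 and 1.83), and Pmepa1, which restrains SMAD signalling (0.46 and 0.50), passed in both. The median log2FC of this list against Ctrl was 0.59 over both runs and 0.17 in the first run alone, where 2 genes were higher and 0 lower. Against LS it was 0.44 over both runs and 0.17 in the first run alone, where 7 genes were higher and 0 lower. The list's summed level was 6250 CPM in AL9, against 595 to 1710 in the other AL mice, 979 to 1290 in LS mice and 588 to 1440 in Ctrl mice. Apart from AL9, the sums of the AL mice thus spanned about the range of the controls, with AL1 (1710) and AL7 (1450) above every control. A sum follows the most abundant genes of the list.

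Of 9 tested BMP target genes, 2 were higher and 2 lower against each control. Bambi, a decoy receptor (0.51 and 0.61), and Atoh8 (0.42 and 0.51) were higher. Tmem100, an endothelial gene downstream of ALK1 (-1.12 and -2.40), and Hamp (-4.38 and -3.49) were lower. Hamp encodes hepcidin, a product of hepatocytes, and moved with the liver markers, of which 19 of 20 were lower against Ctrl with a median log2FC of -4.01. Their sum ranged from 12.2 to 70.1 CPM in AL mice, 27.2 to 262 in LS mice and 14.9 to 399 in Ctrl mice. In the first run it was 20.6 to 70.1 in AL and 76.1 to 399 in Ctrl mice. In the second run AL8 and AL9 (12.2 and 16.3) lay close to Ctrl5 to Ctrl7 (14.9, 19.7 and 19.2). So in the first run the liver covariate and the group are hard to tell apart in AL against Ctrl. With the mean of the liver markers as a covariate the log2FC of Hamp was -0.05 against Ctrl (FDR 0.967) and -0.11 against LS (FDR 0.971). In the same fits Tmem100 had values of -1.19 (FDR 0.122) and -2.43 (FDR 0.00333), Bambi of 0.43 (FDR 0.0881) and 0.55 (FDR 0.0408), and Atoh8 of 0.20 (FDR 0.475) and 0.33 (FDR 0.234).

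Among other extracellular antagonists, of which Cer1 was at 0 in all mice, 4 of 11 tested were higher against Ctrl and 2 were higher and 1 lower against LS. Bgn, the proteoglycan biglycan (0.82 and 0.96), and Chrdl1, a chordin-like BMP antagonist (1.03 and 1.37), were higher in both. Of 15 genes of latency and activation, 3 were higher and 1 lower against Ctrl, and 1 was higher and 1 lower against LS. Bmp1, a protease that cleaves procollagen and chordin rather than a BMP ligand, was higher (0.50 and 0.57), and Ltbp1, which stores latent TGF-beta in the matrix, was lower (-0.32 and -0.52). Of 9 other ligands none passed against Ctrl and 1 was higher against LS, and of 8 other receptors and co-receptors 2 and 1 were higher.

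RNA levels of cell type markers also differed between the groups, and whether the makeup of the tissue differed was not tested. Mesothelial markers, which mark the lining of the heart's surface, were higher in AL for 6 of 8 genes against Ctrl and 4 of 8 against LS, with median log2FC of 1.66 and 1.72. In the first run alone 1 of 8 was higher against Ctrl, with a median of 1.17, and 5 of 8 against LS, with a median of 1.5. None was at 0 in all mice. Their sum was 18.4 to 297 CPM in AL mice (AL9 highest, the next 82.6), 8.16 to 27.5 in LS mice and 16.3 to 39.4 in Ctrl mice. With their mean as a covariate, chosen after seeing the data, 2 of the 37 genes had an FDR under 0.05 against Ctrl (Tgfbr3, log2FC -0.73, and Smad2, -0.25) and 3 against LS (those and Eng, 0.66), while the share of all genes fell to 10.5% and 8.71%. In these fits Fstl3 had a log2FC of 0.95 against Ctrl (FDR 0.0505), Tgfb2 of 0.62 (FDR 0.126) and Tgfbr2 of 0.26 (FDR 0.124). Other genes lost the FDR without a smaller log2FC. Against Ctrl, Smad9 had 0.95 (FDR 0.0765) and Id2 0.67 (FDR 0.108). Against LS, Bmp4 had 0.78 (FDR 0.0709) and Bmp6 0.76 (FDR 0.0598). The mesothelial mean was 0.62 and 1.67 log2 CPM in AL2 and AL1 and 2.23 or more in the other AL mice. In LS and Ctrl mice it was 1.74 or less. So the mesothelial covariate and the group are hard to tell apart.

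Atrial cardiomyocyte markers were higher against Ctrl for 4 of 7 tested genes and summed to 230 to 1050 CPM in AL, 215 to 506 in LS and 95.6 to 234 in Ctrl mice. This list holds Nppa, which the paper counts among markers of cardiac dysfunction and fibrosis. Ventricular markers were lower for 3 of 10 against Ctrl. In the first run they summed to 58200 to 73100 CPM in AL, 79000 to 89000 in LS and 76900 to 84200 in Ctrl mice. In the second run the groups overlapped, with 73000 to 93600 in AL and 91200 to 96900 in Ctrl mice. Endothelial markers, of the cell type named above for Eng, Acvrl1 and Bmp6, were higher for 2 of 10 against each control. They summed to 516 to 859 CPM in AL mice (median 663), 511 to 612 in LS mice (median 567) and 546 to 763 in Ctrl mice (median 616). None of the 10 fibroblast markers passed against either control. Their sum was 5050 CPM in AL9, 716 to 3220 in the other AL mice, 2240 to 2410 in LS mice and 1300 to 2510 in Ctrl mice. Macrophage markers were higher for 2 of 10 against Ctrl, and lymphocyte markers for 0 of 9. Pericyte and smooth muscle markers, which share Vtn with the liver markers, were higher for 1 and lower for 2 of 10. Skeletal muscle markers were higher for 2 of 4. Adipocyte markers were higher for 0 of 6 against Ctrl and 1 of 6 against LS. The part of these cell types in the results for the signalling genes was not tested. The mesothelial and liver fits cannot decide it, because these covariates differ between the groups themselves.

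**Figure D5:**
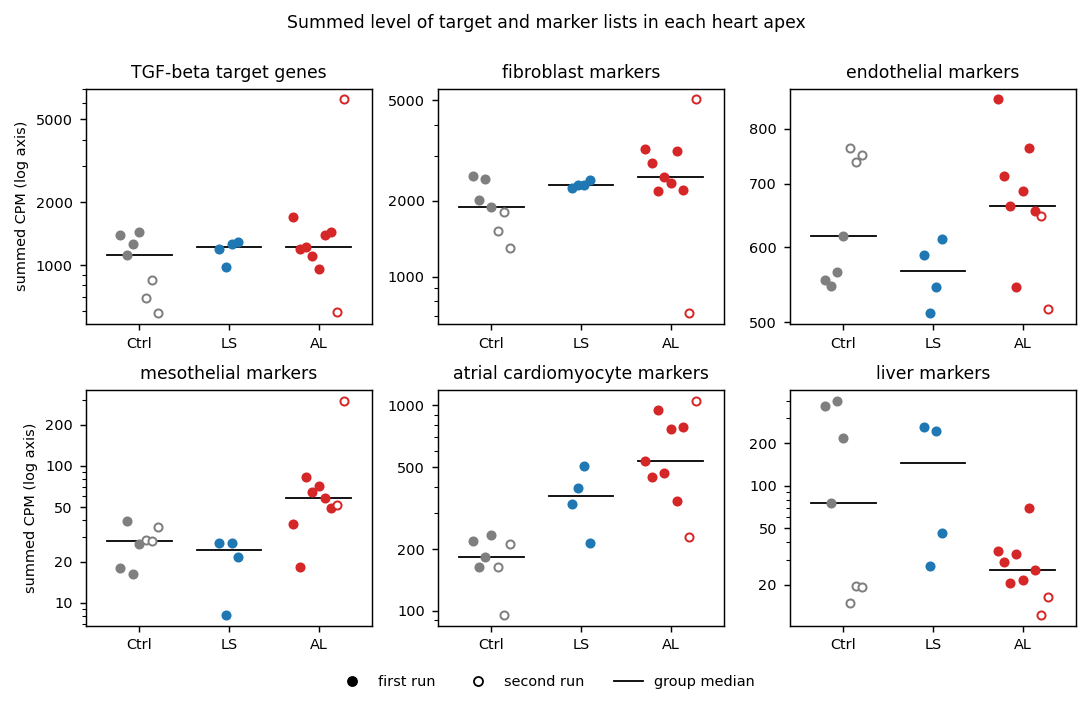
Summed CPM (log axis) of 6 gene lists in each Ctrl, LS and AL mouse, with filled points for the first run, open points for the second and a line at the group median. Mesothelial markers (18.4 to 297 CPM) and atrial markers are higher in most AL mice, AL9 is far above the others for the TGF-beta target genes (6250 CPM), and liver markers are spread widely among the Ctrl and LS mice.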

How the data were processed

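RNA from the heart apex of 9 AL, 4 LS and 7 Ctrl mice was used, grouped by their labels. The authors prepared stranded polyA libraries and deposited Salmon estimated counts per gene for GRCm38 (STAR alignment, nf-core/rnaseq in reverse-strand mode), without normalization; 14.2% of values were not whole, and all were rounded. Genes were filtered with filterByExpr (minimum count 10), which kept 14477, scaled by TMM and tested with edgeR 4.0.16 (quasi-likelihood, group and run terms, 3 groups together, R 4.3.3). FDR is the two-sided Benjamini-Hochberg adjusted p over all genes tested. SEs derive from the F statistic and intervals use 1.96 SE. The difference between runs was fitted on AL and Ctrl mice. The 39 genes, the pathway and marker lists and the alternatives were chosen with earlier results of these data known.

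Every gene of the set was to be described, with values by mouse for those at an FDR under 0.05 in AL against Ctrl or LS. Of each pathway list, at most 5 genes passing in both comparisons were named, those of lowest p against Ctrl. Exon lengths and coordinates come from GENCODE M21 (GRCm38), promoters from RefSeq (GRCm38.p6), of which windows of at least 100 bases were printed. A floor of 3 counts and all intervals on counts cover counting error only. Libraries correlated with each other at 0.893 to 0.98, and 0 pairs were identical. Alternatives used DESeq2 1.42.0 and ComBat-seq of sva 3.50.0. The tests were tested on simulated data. Plots used Python 3.11.15 with matplotlib 3.10.9.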

Additional observations from a re-analysis of the deposited data

Results flagged for a closer look

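In 111 sets of values (37 genes in 3 groups), the highest or lowest mouse stood apart from its group by Dixon's criterion in 5, and chance gives about 1 in 20. Tgfb1 measured 23.6 CPM in AL9, against 9.26 in the next AL mouse. Smad2 measured 26.2 CPM in LS4, against 22.7 in LS2. Bmp7 was low in Ctrl6, at 0.797 CPM against 1.14 in Ctrl1. Fst was high in Ctrl4, at 2.62 CPM against 0.513 in Ctrl2. Ski was low in Ctrl7, at 41.3 CPM against 52.2 in Ctrl4. Of these, AL9, Ctrl6 and Ctrl7 were sequenced in the second run.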

How the results depend on the processing

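The replicate numbers that the groups share did not pair the mice: residuals of same-numbered mice correlated between -0.228 and 0.293, above 0.1 in 4 of 15 pairs. A fit with the replicate block gave 8 genes at an FDR under 0.05 against Ctrl in place of 13, 6 of them shared, and 10 against LS, where Tgfbr3 (FDR 0.0538), Skil and Smad5 were lost. Against Ctrl the count was 4 with ComBat-seq in place of the run term, 7 without a run term, 0 in the second run alone and 2 with the mesothelial term. The second-run and mesothelial fits were added after seeing the data, and with the size limit as well they gave 0 and 1 in place of 6. Against LS, the count of 13 became 1 with ComBat-seq, 7 without a run term, 6 with the liver term and 3 with the mesothelial term, and the count of 5 with the size limit became 3 with no filter, 1 with ComBat-seq, 2 with the liver term and 1 with the mesothelial term. The share of all genes at an FDR under 0.05 fell too, from 26.2% against Ctrl and 23.4% against LS. It became 14.9% and 21.4% with the replicate block, and 15.1% and 16.4% without a run term. With the liver term it was 17.3% and 18.1%, with the mesothelial term 10.5% and 8.71%, and with ComBat-seq 5.5% and 4.48%. In the second run alone it was 0.128% against Ctrl. The term between runs passed for 1 gene in DESeq2, against 3.47% of all genes. The 95 pathway genes gave 31 in place of 19 against LS in the first run alone. Leaving out 1 mouse gave 10 to 14 genes against Ctrl (3 to 6 with the size limit), 6 to 14 against LS (1 to 6), 0 between LS and Ctrl and 0 to 10 between runs. Among the 26 values at an FDR under 0.05, refitted under each alternative, Id2 against Ctrl changed sign, to -0.21 in the second run alone. Genes that did not pass could change sign as well, such as Bmp4, Bmp6, Tgfb1 and Fstl1. Of the other refitted values of single genes, 655 kept their direction and an FDR under 0.05 and 189 kept the direction alone. The causes were not tested. The second run had 7867642 to 11794615 counts a library, and Fst, Mstn and Bmp2 were too low for a test there.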
